A study of Mus musculus with 48 samples.

Results

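The cold-inducible RNA-binding proteins Cirbp and Rbm3 and the heat shock proteins Hspa1a, Hspa1b, Hspa8, Hsph1, Hsp90aa1, Dnajb1, Hspb1 and Hspa5 were followed in whole blood and medial prefrontal cortex (mPFC) of female mice. The members were the 15 probes, of 55681 non-control probes on the array, whose gene name was one of these 10 genes. A probe of that name was found for 9 genes and none for Hspa1b. Cirbp was chosen by its measured stress effect in blood, the lowest of any probe, and the other genes because they are known to respond to cold or heat. The question was whether the cold-inducible and the heat-inducible genes moved in opposite directions. RNA was measured on 48 one-colour arrays, 24 of blood and 24 of mPFC, with 6 mice in each of 4 groups, and both tissues came from the same mice. All mice were female C57BL/6J, 17 weeks old. Control mice had a sham operation and no stress, and CUMS mice had a sham operation and 6 weeks of chronic ultra-mild stress. Its schedule held cage tilt, small, soiled or exchanged cages, odor, difficult access to food, night lighting and shifted light cycles. OVX mice had both ovaries removed and no stress, and OVX+CUMS mice had the ovaries removed before the same stress. Per the study's methods, blood was drawn from the vena cava under pentobarbital, which all groups received, and RNA came from the pelleted cells. The paper places behavioural tests, a forced swim among them, and blood sampling on the day after the stress ended. Whether the mice of the arrays took these tests is not clear from it. Body temperature at sampling is not given in the sources used here.

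Mammalian cells answer mild cooling by making more of a few RNA-binding proteins of the glycine-rich family. CIRBP and RBM3 are the best known of these: each carries an RNA recognition motif and binds transcripts, affecting their stability, splicing and translation. Heat and misfolded protein release the transcription factor HSF1, which turns on chaperones that hold or refold proteins in the cytosol. A separate response in the endoplasmic reticulum (ER) turns on that compartment's own chaperone, HSPA5, also called BiP. Cirbp RNA in particular falls on warming, the reverse of the heat shock genes, which is why both classes are set side by side.

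The RefSeq promoter table (GRCm38.p6) held 7 of the 10 genes, and Rbm3, Hspa8 and Hsp90aa1 were not among them. The 250 bases before the start are shown for Cirbp, the gene with the lowest stress effect, and for the chaperone genes Hsph1, Hspb1 and Hspa5, each of which passed a test in 1 tissue or is described in detail. Each is read 5′ to 3′ on the strand of its gene, and capitals mark a motif.
Cirbp (chr10:80167589-80167838, plus strand, first of 2 starts): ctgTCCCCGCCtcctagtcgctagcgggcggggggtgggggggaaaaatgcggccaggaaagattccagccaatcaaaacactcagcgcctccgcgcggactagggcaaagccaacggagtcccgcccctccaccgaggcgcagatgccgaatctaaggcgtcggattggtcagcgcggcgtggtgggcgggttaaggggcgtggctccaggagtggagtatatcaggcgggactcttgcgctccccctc
Hsph1 (chr5:149636337-149636586, minus strand, first of 2 starts): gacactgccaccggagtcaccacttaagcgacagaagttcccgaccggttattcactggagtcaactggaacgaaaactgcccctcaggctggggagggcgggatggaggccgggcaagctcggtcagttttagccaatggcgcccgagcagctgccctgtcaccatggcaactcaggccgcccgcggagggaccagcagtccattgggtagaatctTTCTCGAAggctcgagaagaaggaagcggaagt
Hspb1 (chr5:135887669-135887918, plus strand): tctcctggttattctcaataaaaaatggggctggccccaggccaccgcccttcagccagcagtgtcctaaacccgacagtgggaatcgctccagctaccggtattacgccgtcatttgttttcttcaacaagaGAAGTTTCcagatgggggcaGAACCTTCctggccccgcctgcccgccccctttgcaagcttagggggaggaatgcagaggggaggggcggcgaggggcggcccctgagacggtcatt
Hspa5 (chr2:34771840-34772089, plus strand): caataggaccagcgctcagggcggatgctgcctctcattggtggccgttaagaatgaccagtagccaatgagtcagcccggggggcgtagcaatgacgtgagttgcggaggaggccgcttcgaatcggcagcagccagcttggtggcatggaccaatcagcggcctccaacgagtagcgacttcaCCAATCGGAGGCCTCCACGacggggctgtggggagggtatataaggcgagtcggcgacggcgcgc
The capitals in Cirbp are the mild-cold element TCCCCGCC, with its first base 247 bases before the start. The window of the second Cirbp start did not hold it. That element, searched on both strands like all motifs here, was in 4.64% of the 32851 promoter windows of the table. The capitals in Hspb1 are a pair of heat shock units GAANNTTC, 117 and 97 bases before the start, a pattern in 6.69% of windows. Hsph1 held the outward pair TTCNNGAA 33 bases before its start, as did 7.17% of windows. Hspa5 held the ER stress element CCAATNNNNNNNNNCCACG 65 bases before its start, found in 37 windows, 0.113% of all. Hspa1a and Hspa1b each held GAANNTTC at 104 bases and the mild-cold element on the other strand at 137 bases, and their windows differed at 3 of 250 bases. The full heat shock element of 3 units, GAANNTTCNNGAA, was in 0.466% of windows and in none of the members, and Dnajb1 had none of these motifs. A match is only a run of letters and was not tested as a binding site.

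Values are log2 signals minus the array's 75th percentile, so a level of 0 is that percentile and a difference of 1 is a doubling, and levels are compared only within a probe. A probe counted as detected in a tissue when it was well above background on all 24 arrays and its raw intensity passed 50 on at least 2. By their brightest detected probe, 7 of 10 members were measured in blood and 9 in mPFC, of 20748 and 28353 detected probes. Blood arrays were dimmer and more uneven, with 75th percentiles of 54.9 to 191.5 against 571.6 to 688.8 in mPFC, and the dimmest was that of CUMS mouse 2. Blood expressed 10 of 10 B cell and 11 of 11 T cell markers, and mPFC 9 of 9 neuronal and 7 of 7 microglial markers. Blood had 3 of 9 neuronal markers, with Syt1, Rbfox3, Slc17a7 and Gad2 not detected. The blood array of OVX+CUMS mouse 5 stood apart by its neutrophil transcripts, with a mean level of 5.80 over the list against a group median of 2.05.
In both tissues the first slide held 6 control and 2 CUMS arrays, the next 4 CUMS and 4 OVX arrays and the last 2 OVX and 6 OVX+CUMS arrays. No slide held sham-operated and ovariectomized mice of the same stress state, so slide and surgery cannot be told apart. With slide as a block, limma called no probe of the whole array for the OVX effect or the interaction in either tissue, or for the CUMS effect in mPFC. At an unadjusted p under 0.05 without the block, 12759 blood and 11653 mPFC probes passed for OVX, 3570 and 6629 for the interaction, and 6577 mPFC probes for CUMS. Since RNA of a tissue is a mixture, fewer cells of a type and less RNA per cell cannot be told apart.

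In blood the cold-inducible pair was lower in stressed mice by its main, that is brightest, probes, Cirbp most of all. These stress values chose Cirbp, so they are given as a description with no test. The main Cirbp probe (A_51_P272106, mm9 chr10:79634274-79634333) ran from 2.27 through a median of 2.66 to 3.03 in control mice and from 1.16 through 1.24 to 1.97 in CUMS mice. In OVX mice it ran from 2.54 through 3.05 to 3.18, and in OVX+CUMS mice from 1.96 through 2.31 to 2.83. Every CUMS mouse was therefore below every control mouse, while OVX+CUMS mice overlapped with OVX mice. CUMS mice differed from control mice by -1.27 ± 0.18 (log2 difference ± SE, n = 6 per group), and OVX+CUMS mice from OVX mice by -0.61 ± 0.18. Averaged over surgery the CUMS effect was -0.94 ± 0.13, a ratio of 0.522. It was the lowest of all 20748 probes, followed by -0.76 for a probe without a gene symbol and -0.74 for Zfp318, a zinc finger protein gene. Within the first slide the CUMS minus control difference was -1.28 ± 0.24, and within the last slide the OVX+CUMS minus OVX difference was -0.73 ± 0.24.

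**Figure D1:**
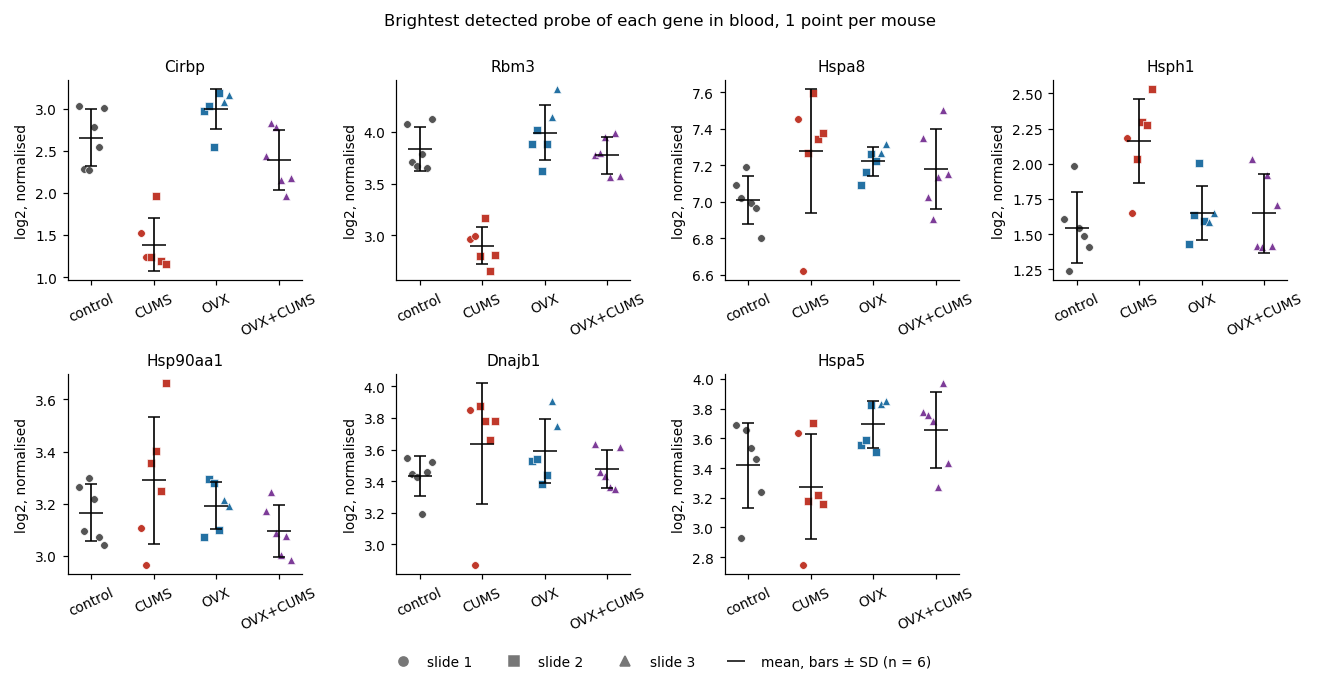
Log2 level of the main probe of each detected member in blood (y axis, relative to the array's 75th percentile) by group (x axis, 6 mice each); points are mice, their shape marks the slide, and bars show mean ± SD. Cirbp of the CUMS mice lies between 1.16 and 1.97, below all control mice, whereas the chaperone genes overlap between groups.

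Rbm3 was also lowest in CUMS mice. Its main probe (A_51_P262340, mm9 chrX:7719656-7719715) ran from 3.65 through 3.75 to 4.12 in control mice, from 2.66 through 2.89 to 3.17 in CUMS mice, from 3.62 through 3.95 to 4.41 in OVX mice and from 3.56 through 3.79 to 3.99 in OVX+CUMS mice. CUMS mice were the low group, and the ranges of the other 3 groups overlapped with one another. The CUMS effect was -0.58 ± 0.09, at place 98 from the lowest, and a second Rbm3 probe (A_55_P2117525) gave -0.66 ± 0.10, at place 22. As a description alone, 3 of 7 members were past the limma threshold for the CUMS effect in blood, Cirbp and Rbm3 lower and Hsph1 higher, as were 48.5% of all detected probes (19.1% higher and 29.4% lower). Since this contrast chose Cirbp, nothing is read from that count. Against control mice, the main Cirbp probe and both Rbm3 probes were lower in CUMS mice without overlap, a pattern of 2.67% of probes. The second Rbm3 probe was also lower in all OVX+CUMS than in all OVX mice, as were 6.99% of probes.

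The Cirbp probes disagreed, although their mean intensities in blood were close, at 577.4 for the main and 500 for the second probe. The second one (A_55_P1985001, mm9 chr10:79635422-79635481), taken from an Ensembl transcript and placed downstream of the main probe on the genome, had a CUMS effect of 0.13 ± 0.12. It ran from 2.13 through 2.27 to 2.97 in control mice, from 2.00 through 2.50 to 2.97 in CUMS mice, from 1.39 through 1.75 to 2.04 in OVX mice and from 1.82 through 2.03 to 2.07 in OVX+CUMS mice. Control and CUMS mice overlapped, and both ovariectomized groups were below all control mice, as for 12.4% (OVX) and 4.26% (OVX+CUMS) of probes. Its OVX effect of -0.60 ± 0.12 (adjusted p = 0.000396), called lower like 27.7% of all probes, had the opposite sign to that of the main probe. Which transcript of Cirbp each probe reads was not analysed here, and the exon of each was not looked up in the mm9 annotation. Another Rbm3 probe (A_52_P280360) was not well above background on every array in either tissue and was not tested.

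**Figure D2:**
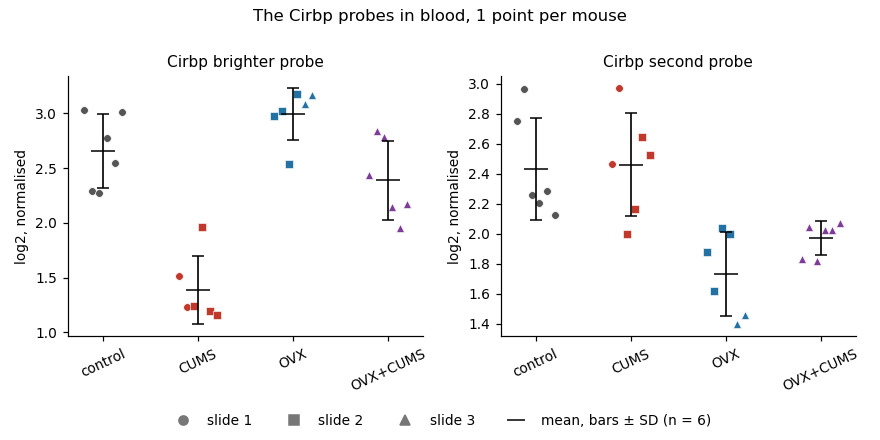
Log2 level (y axis, relative to the array's 75th percentile) of both Cirbp probes in blood by group (x axis, 6 mice each). Points are mice, shapes mark slides, and bars show mean ± SD. In blood the main probe is lowest in CUMS mice and the second probe is lowest in OVX mice.

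Ovariectomy went with higher Rbm3 in blood and, by the main probe only, higher Cirbp. This contrast is not the stress effect, but it uses the same arrays, including the CUMS mice in which both main probes were lowest. Whether the stress fall that chose Cirbp was averaged over surgery or taken in sham-operated mice is not stated. The low CUMS values enter both contrasts, so the Cirbp test below is not taken as independent of that choice. By its main probe Cirbp rose by 0.67 ± 0.13, 1.59-fold (limma, adjusted p = 0.000314). The second Cirbp probe had the opposite sign, at -0.60 ± 0.12 (adjusted p = 0.000396). Rbm3 rose by 0.52 ± 0.09, 1.43-fold (adjusted p = 0.000216), with the second Rbm3 probe at 0.36 ± 0.10 (adjusted p = 0.00355). Among stressed mice, OVX+CUMS minus CUMS was 1.00 ± 0.18 for Cirbp and 0.87 ± 0.13 for Rbm3, and among unstressed mice OVX minus control was 0.34 ± 0.18 and 0.16 ± 0.13. All OVX+CUMS mice were above all CUMS mice for the main Rbm3 probe, which holds for 1.95% of probes. Hspa5, the ER chaperone, ran from 2.93 through 3.50 to 3.69 in control, from 2.75 through 3.20 to 3.70 in CUMS, from 3.51 through 3.71 to 3.85 in OVX and from 3.27 through 3.74 to 3.97 in OVX+CUMS mice. All its groups overlapped, and its OVX effect of 0.33 ± 0.11 passed (adjusted p = 0.0161), so 3 of 7 members were called, all higher, beside 55.1% of all probes called and 27.4% called higher. These 3 calls held when any 1 of the 24 arrays was left out. With slide as a block the effects were 0.54 (adjusted p = 0.793) for Cirbp, 0.31 (adjusted p = 0.809) for Rbm3 and 0.10 (adjusted p = 0.969) for Hspa5. Shifting arrays by their spike-in probes instead raised them to 1.04, 0.88 and 0.69.

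The interaction is the CUMS effect in ovariectomized mice minus that in sham-operated mice. It is orthogonal to the stress effect averaged over surgery, but not to the stress fall in sham-operated mice alone. For Cirbp it is therefore not taken as independent of the choice. It was positive for both cold-inducible genes, at 0.66 ± 0.25 for Cirbp (limma, adjusted p = 0.155) and 0.72 ± 0.18 for Rbm3 (adjusted p = 0.0471). It was negative for all 4 detected cytosolic chaperone genes, between -0.62 ± 0.21 for Hsph1 (adjusted p = 0.116) and -0.22 ± 0.14 for Hsp90aa1 (adjusted p = 0.453). Rbm3 alone was called, 1 of 7 members, beside 1.42% of all probes, and 1.29% were called higher. The second Rbm3 probe gave 0.13 ± 0.19 (adjusted p = 0.791). The Rbm3 call held in 4 of the 24 fits that leave out 1 array (CUMS mouse 1, CUMS mouse 2, OVX mouse 5 or OVX mouse 6), and was lost without any 1 of the others, with adjusted p up to 0.105. With slide as a block it was 0.35 (adjusted p = 1), and Hsp90aa1 turned to 0.02. The signs of the other members named here did not turn under any scaling tried.

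The cytosolic chaperones of blood moved little on average. HSPA8, the constitutive HSP70 of the cytosol, had a CUMS effect of 0.11 ± 0.09 by its brightest probe (A_55_P2080603), Dnajb1, a J-domain helper of HSP70, 0.05 ± 0.10, and Hsp90aa1, the inducible cytosolic HSP90, 0.01 ± 0.07. Hsph1, the large HSP70 relative HSP105 that acts as a nucleotide exchange factor, had 0.31 ± 0.11. Its main probe (A_55_P2176963, mm9 chr5:150419744-150419803) ran from 1.24 through 1.52 to 1.99 in control mice, from 1.65 through 2.23 to 2.53 in CUMS mice, from 1.43 through 1.61 to 2.01 in OVX mice and from 1.41 through 1.56 to 2.04 in OVX+CUMS mice. CUMS mice were the high group but overlapped with each other group. CUMS mice differed from control mice by 0.62 ± 0.15, while OVX+CUMS mice differed from OVX mice by -0.001 ± 0.15. The CUMS effects of Hspa8, Dnajb1 and Hsp90aa1 turned negative, to -0.18, -0.25 and -0.28, when arrays were shifted by spike-in probes, and Hsph1 went to 0.01. By the same shift the median effect over all detected probes moved by -0.29.

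For ovariectomy in blood, none of the 4 cytosolic genes was called in the main analysis: their effects ran from -0.20 ± 0.11 (Hsph1, adjusted p = 0.102) to 0.06 ± 0.09 (Hspa8, adjusted p = 0.609). The median was -0.04, against 0.59 for the cold-inducible pair and 0.04 over all probes. Hspa8 was called under quantile normalization (0.25, adjusted p = 0.0437) and under the spike-in shift (0.42, adjusted p = 0.0356), where all 4 were positive. Hspa1a, the stress-inducible HSP70, was well above background on 3 of 24 blood arrays, and the small heat shock protein Hspb1 was on 21, so no fold is given for either in blood. The signal of the Hspa1a probe is uncertain because RNA of the near-identical Hspa1b may also bind it.

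Blood cell markers and array brightness also differed between the groups. Of 10 B cell marker genes 8 were lower with CUMS and 6 higher with OVX. Of 11 T cell genes 6 were lower with CUMS and 3 lower with OVX. Of 9 detected erythroid genes 7 were higher with CUMS and 7 lower with OVX. Over all probes 29.4% were lower and 19.1% higher with CUMS, and 27.7% lower and 27.4% higher with OVX. The T cell count for OVX was near the share of all probes. The mean level of the B cell list ran from 3.31 to 3.70 in control, 2.77 to 3.53 in CUMS, 3.89 to 4.01 in OVX and 2.70 to 3.84 in OVX+CUMS mice. The erythroid list ran from 6.57 to 7.66, 7.07 to 7.94, 6.17 to 7.11 and 6.62 to 7.19 in the same order. The median 75th percentile, a measure of array brightness, was 110.1, 90.1, 139.0 and 125.2 in that order. After subtraction of group means, Cirbp correlated at r = 0.65 with the B cell list, 0.68 with the T cell list, -0.64 with the erythroid list and 0.53 with array brightness, across 24 arrays that also share slides and scaling. Rbm3 correlated at 0.07 with the B cell list, -0.48 with the erythroid list and 0.56 with brightness. Hspa5 correlated at 0.33 with the B cell list, -0.43 with the erythroid list and 0.69 with brightness. The part of blood cell makeup and brightness in the Cirbp, Rbm3 and Hspa5 values was not tested.

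In mPFC the main probes of the cold-inducible pair were again higher after ovariectomy, and neither gene had a called stress effect. Cirbp ran from 3.80 through 3.995 to 4.16 in control, from 3.69 through 3.94 to 4.17 in CUMS, from 4.02 through 4.23 to 4.31 in OVX and from 3.99 through 4.22 to 4.73 in OVX+CUMS mice. Rbm3 ran from 3.14 through 3.36 to 3.66, from 3.31 through 3.59 to 3.77, from 3.36 through 3.70 to 3.98 and from 3.67 through 3.95 to 4.47 in the same order. Ovariectomized mice were the high ones for both genes, but only OVX+CUMS against control mice did not overlap, for Rbm3 (both probes, a pattern of 8.59% of probes). The OVX effect was 0.31 ± 0.07 for Cirbp, 1.24-fold (limma, adjusted p = 0.00364), and 0.41 ± 0.10 for Rbm3, 1.32-fold (adjusted p = 0.00286), with the second Rbm3 probe at 0.49 ± 0.10 (adjusted p = 0.000732). They were the members called, 2 of 9, beside 30.9% of all probes called and 19.1% called higher. The share of members was 22.2%. The Cirbp and Rbm3 calls held in all 24 fits that leave out 1 array. With slide as a block the values were 0.22 (adjusted p = 0.869) and 0.29 (adjusted p = 0.865), and under the spike-in shift 0.14 (adjusted p = 0.137) and 0.24 (adjusted p = 0.0438). Of 7 microglial markers 6 were also higher after ovariectomy, with mean list levels of 2.23 to 2.39 in control, 2.19 to 2.48 in CUMS, 2.39 to 2.57 in OVX and 2.36 to 2.66 in OVX+CUMS mice. The second Cirbp probe had an OVX effect of 0.30 ± 0.15 (adjusted p = 0.127). Within groups the microglial list correlated at 0.24 with Cirbp and 0.19 with Rbm3, and its part in the result was not tested.

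**Figure D3:**
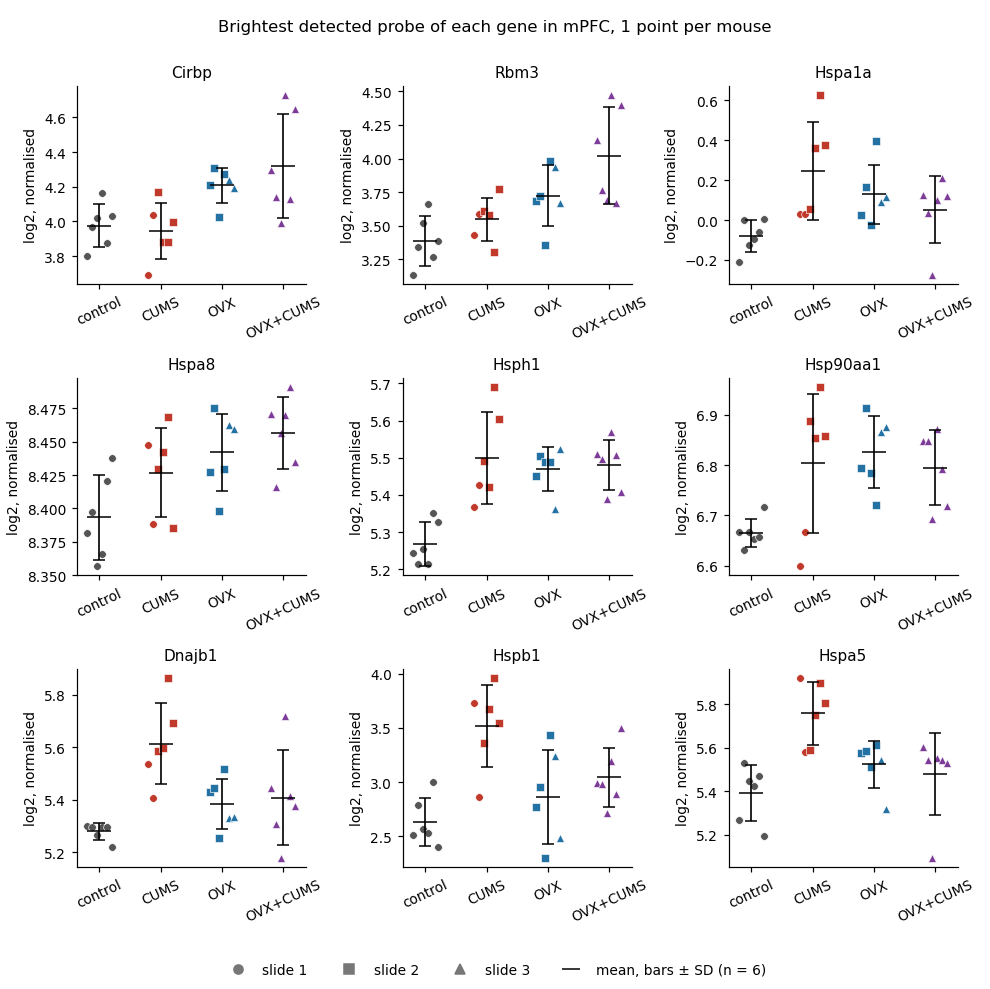
Log2 level of the main probe of each detected member in mPFC (y axis, relative to the array's 75th percentile) by group (x axis, 6 mice each); points are mice, shapes mark slides, and bars show mean ± SD. Hspb1 of CUMS mice reaches 3.96 against at most 3.01 in control mice, and Cirbp and Rbm3 are highest in the ovariectomized groups.

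Among the chaperone genes of mPFC, Hspb1 rose with stress. For Hspb1 (A_55_P2039284, mm9 chr5:136365366-136365425), the HSP27 that binds unfolding proteins without using ATP, levels ran from 2.41 through 2.55 to 3.01 in control, from 2.86 through 3.61 to 3.96 in CUMS, from 2.30 through 2.86 to 3.44 in OVX and from 2.71 through 2.99 to 3.50 in OVX+CUMS mice. CUMS mice were the high group and overlapped slightly with control mice. The CUMS effect was 0.53 ± 0.13, 1.45-fold (limma, adjusted p = 0.0308), and Hspb1 was the 1 member of 9 called, beside 4.2% of all probes called and 2.33% called higher. It was 0.89 ± 0.19 between CUMS and control mice and 0.18 ± 0.19 between OVX+CUMS and OVX mice. The call held in 19 of 24 fits with 1 array left out, and was lost, with adjusted p up to 0.0599, without control mouse 6, CUMS mice 4, 5 or 6, or OVX mouse 1. Within the first slide the difference was 0.66 (adjusted p = 0.956), within the last 0.18 (adjusted p = 1), and with slide as a block 0.42 (adjusted p = 0.65).

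Other chaperones lay close to the threshold. Dnajb1 had a CUMS effect of 0.18 ± 0.05 (limma, adjusted p = 0.0537), and Hsph1 0.12 ± 0.04 by its main probe (adjusted p = 0.0543) and 0.14 ± 0.04 by the second (adjusted p = 0.0428). The 6 cytosolic heat shock genes detected in mPFC had positive CUMS effects, with a median of 0.12 against 0.01 over all probes. Under the spike-in shift, however, Hspa1a, Hspa8, Hsph1 and Hsp90aa1 turned negative (-0.003, -0.11, -0.01 and -0.08), and Hspa8 also under quantile normalization (-0.02). Cirbp at 0.04 ± 0.07 (adjusted p = 0.789) and Rbm3 at 0.23 ± 0.10 (adjusted p = 0.149) did not pass and had the same sign as the chaperones. Dnajb1, both Hsph1 probes, Hspa1a and Hspa5 were higher in all CUMS mice than in all control mice, as were 1.71% of probes. Dnajb1 ran from 5.22 through 5.30 to 5.30 in control and from 5.41 through 5.59 to 5.86 in CUMS mice, whereas OVX mice (5.26, 5.38 and 5.52) and OVX+CUMS mice (5.18, 5.40 and 5.72) overlapped with each other.
Both Hsph1 probes and Hsp90aa1 were also higher in all OVX mice than in all control mice, as for 11.4% of probes, and both Hsph1 probes in all OVX+CUMS mice.

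Hspa5, which binds unfolded proteins in the ER and holds its stress sensors inactive, had an mPFC interaction of stress and surgery just past the threshold. In mPFC it ran from 5.20 through 5.44 to 5.53 in control, from 5.58 through 5.78 to 5.92 in CUMS, from 5.32 through 5.56 to 5.61 in OVX and from 5.09 through 5.54 to 5.60 in OVX+CUMS mice. CUMS mice were above all control mice, and OVX and OVX+CUMS mice overlapped. CUMS mice exceeded control mice by 0.37 ± 0.08, while OVX+CUMS mice differed from OVX mice by -0.05 ± 0.08. The interaction of -0.41 ± 0.12 passed (limma, adjusted p = 0.0468), the 1 call among 9 members, beside 4.47% of all probes called and 1.12% called lower. That call held in 3 of 24 fits with 1 array left out (CUMS mouse 1, CUMS mouse 2 or OVX mouse 6) and was lost without any 1 of the others, with adjusted p up to 0.0939. It was -0.40 (adjusted p = 0.0508) under quantile normalization and -0.31 (adjusted p = 1) with slide as a block.

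The mPFC interaction was negative for all 6 cytosolic heat shock genes and positive for the cold-inducible pair, with none of these called. Hspb1 stood at -0.71 ± 0.26 (adjusted p = 0.111), Hspa1a at -0.40 ± 0.14 (adjusted p = 0.0837), Dnajb1 at -0.31 ± 0.11 (adjusted p = 0.0813), Hsph1 at -0.22 ± 0.07 (adjusted p = 0.0717) and Hsp90aa1 at -0.17 ± 0.08 (adjusted p = 0.183). Hspa8, at -0.02 ± 0.04 by its brightest probe, turned to 0.01 when the percentile was taken over detected probes. Another of its probes (A_52_P12877) gave -0.45 ± 0.13 (adjusted p = 0.0509). Cirbp was at 0.15 ± 0.15 (adjusted p = 0.583) and Rbm3 at 0.13 ± 0.19 (adjusted p = 0.711), with the second Rbm3 probe at -0.02. The median was -0.27 for the 6 heat shock genes and 0.14 for the pair, against -0.04 over all detected probes.

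**Figure D4:**
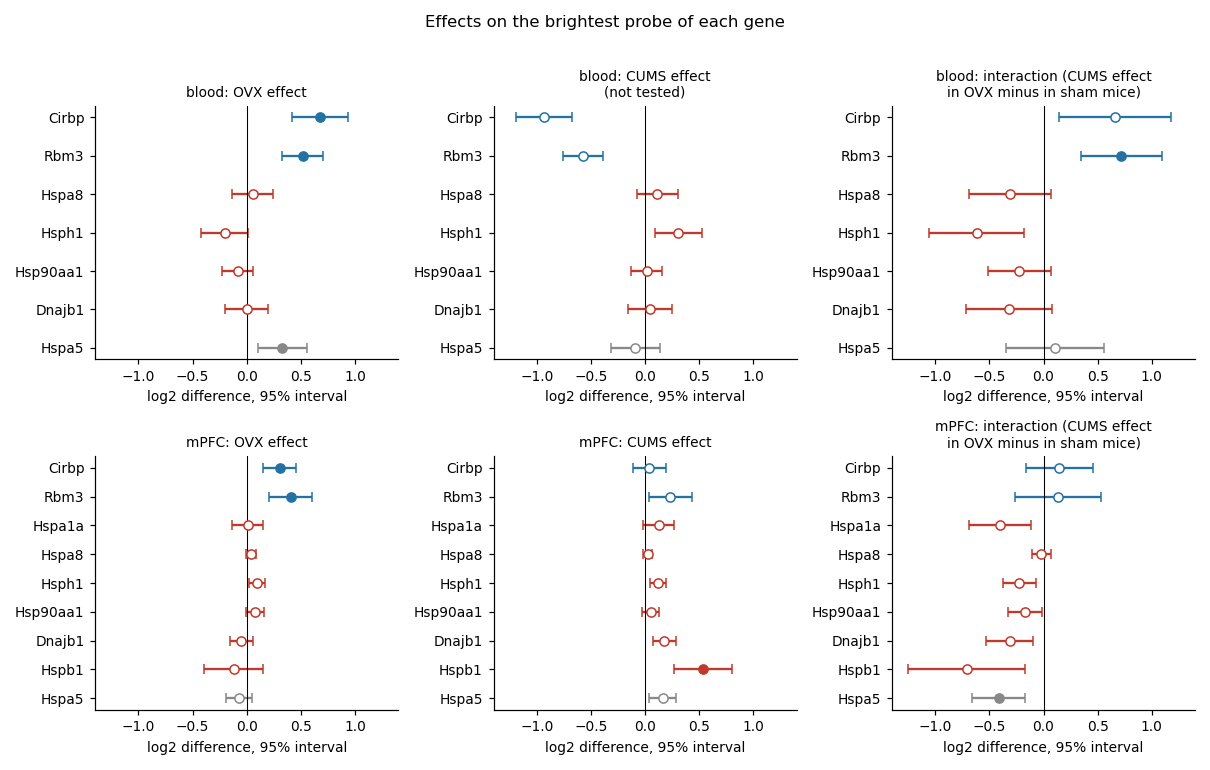
OVX effect, CUMS effect and interaction (x axis, log2 difference, with 95% confidence intervals) of the main probe of each member (y axis) in blood and mPFC; blue marks cold-inducible genes, red cytosolic heat shock genes and grey Hspa5, and filled points were called by limma, except that the blood CUMS effect chose Cirbp and is drawn open. Cirbp and Rbm3 are at -0.94 and -0.58 for CUMS in blood and at 0.04 and 0.23 in mPFC.

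The difference between tissues was tested for ovariectomy only, over 17529 probes detected in both tissues, with the mouse as a random block. Blood minus mPFC was 0.37 ± 0.14 for Cirbp (limma, adjusted p = 0.0385), 0.40 ± 0.12 for Hspa5 (adjusted p = 0.00875) and -0.30 ± 0.11 for Hsph1 (adjusted p = 0.0273), so 3 of 7 members were called, beside 39.3% of all probes called, 19.9% higher and 19.4% lower. The Cirbp difference includes the low blood values of the CUMS mice, so its test is not taken as independent of the choice of Cirbp. Rbm3 stood at 0.11 ± 0.13 (adjusted p = 0.505), so that a difference between tissues was not detected for it. The second Cirbp probe was at -0.90 ± 0.18 (adjusted p = 0.000246). The second Hsph1 probe, at -0.27 ± 0.14 (adjusted p = 0.12), was not called. The Cirbp call held in 30 of 48 fits with 1 array left out, with adjusted p up to 0.0656 in the others, and those of Hspa5 and Hsph1 in all 48. The Cirbp call was lost without any 1 of 7 mPFC arrays (control mouse 4, CUMS mice 2 and 3, OVX mouse 3, OVX+CUMS mice 2, 3 and 5) or 11 blood arrays (control mice 2 and 3, CUMS mice 2, 3, 5 and 6, OVX mice 4, 5 and 6, OVX+CUMS mice 2 and 3). The Hsph1 call was lost with normexp background correction (-0.09, adjusted p = 0.5), quantile normalization (-0.24, adjusted p = 0.0609), the percentile over detected probes (-0.24, adjusted p = 0.0802) and no detection filter (adjusted p = 0.0565), and Hsph1 turned to 0.23 under the spike-in shift. The Cirbp call was lost without the filter (adjusted p = 0.0699), and none of the 3 was called with slide as a block. The CUMS effects of both tissues, given as values alone, were -0.94 in blood and 0.04 in mPFC for Cirbp, -0.58 and 0.23 for Rbm3, 0.31 and 0.12 for Hsph1, and -0.09 and 0.16 for Hspa5.

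Mouse by mouse, Cirbp and Rbm3 varied together in both tissues. After subtraction of group means, r was 0.65 in blood (Spearman's rho 0.65) and 0.86 in mPFC (rho 0.85), each over 24 arrays, as a description. Pairs of a cold-inducible and a cytosolic heat shock gene did not run opposite within groups as a rule: r lay between -0.34 and 0.24 in blood, negative for 4 of 8 pairs, and between -0.14 and 0.46 in mPFC, positive for 9 of 12. The lowest, Rbm3 with Hsph1 in blood, was -0.34. Heat shock genes varied with each other at 0.36 to 0.62 over 6 pairs in blood and 0.11 to 0.71 over 15 pairs in mPFC, where Dnajb1 and Hspa1a were the closest. Arrays of a slide share their scan, and all values of an array share its scaling.

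**Figure D5:**
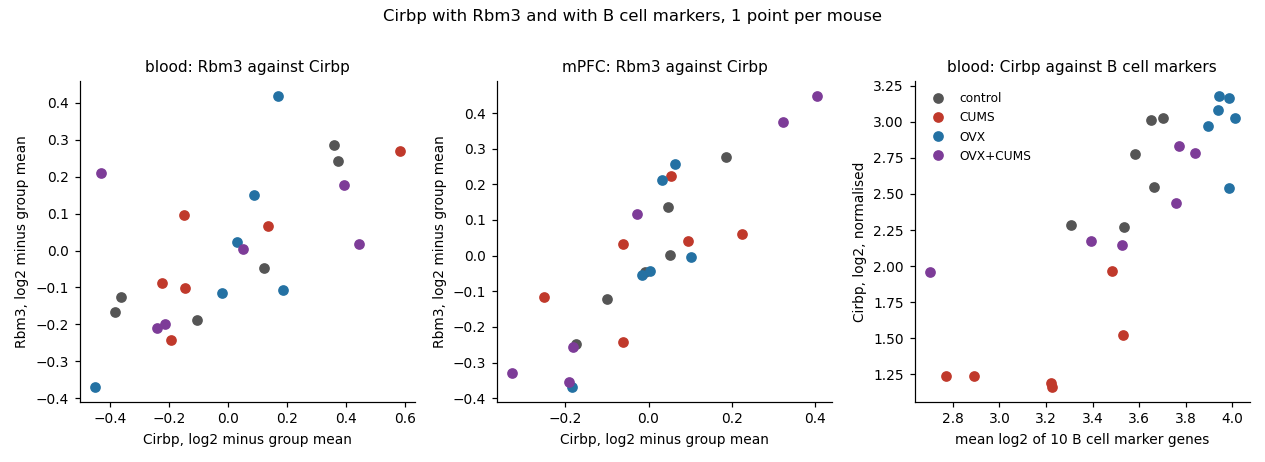
Left and middle, the deviation of Rbm3 from its group mean (y axis, log2) against that of Cirbp (x axis, log2) in blood and in mPFC; right, the log2 level of Cirbp in blood (y axis) against the mean log2 level of 10 B cell markers (x axis). Each point is 1 of 24 mice, coloured by group. The r was 0.65 and 0.86 for the deviations, and 0.81 across all mice in the right panel, where group differences are included. In blood across all mice, Cirbp also stood at -0.79 with the erythroid list and 0.76 with array brightness. With the neuronal list, of which only 3 of 9 markers were detected in blood, it stood at -0.81. The T cell list stood at 0.43 and the neutrophil list at -0.14.

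Genes whose values followed a member most closely within groups were ranked by Pearson's r over 24 arrays. For Cirbp in blood they were Nol11 (0.89), Mcoln2 (0.88), Unk (0.88), Mcat (0.88) and Zfand1 (0.88). For Cirbp in mPFC they were Gsr (0.91), Haus1 (0.91), Abi2 (0.88), Eif3m (0.88) and Atp6v1a (0.87). For Hsph1 in blood the first were Hsp90ab1 (0.77), the constitutive HSP90, Dnaja1 (0.72), a J-domain partner of HSP70, and Cct3 (0.72), a subunit of the chaperonin that folds actin and tubulin, then Lrrc1 (0.71) and Mrps6 (0.68). For Hsph1 in mPFC they were Asah1 (0.88), Gm6900 (0.88), Mlx (0.86), Vma21 (0.85) and Chtop (0.83), none a chaperone of the lists used here.

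A further list was mostly RNA-binding proteins with RNA recognition motifs or of the hnRNP family. It also held Ybx1, a cold shock domain protein, and Rtn3, a reticulon. In blood 22 of its 24 genes were detected. Of these 14 were higher with OVX and none lower, beside 27.4% and 27.7% of all probes, led by Rbmxl1 at 0.51 ± 0.11 and Rbm39 at 0.45 ± 0.10, with a median of 0.25 against 0.04 over all probes. With CUMS 18 were past the threshold below and none above, beside 29.4% and 19.1% of all probes, led by Hnrnpa1 at -0.59 ± 0.10 and Rbm25 at -0.56 ± 0.11, with a median of -0.34 against -0.03. The CLK and SR splicing genes, whose kinases are known to respond to temperature, had 11 of 17 higher and 1 lower with OVX, beside 27.4% and 27.7% of all probes, and 13 lower with CUMS, beside 29.4%. Srsf5 was at 0.45 ± 0.09 and Tra2a at 0.45 ± 0.09 for OVX, and Srrm1 at -0.45 ± 0.08 for CUMS. In mPFC 6 of 23 detected genes of the RNA-binding list were higher with OVX, beside 19.1% of all probes, led by Rbm10 at 0.16 ± 0.04, and none was called with CUMS.

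The wider cytosolic list, HSF factors and their chaperone targets, was counted in both tissues. In blood, of 32 detected genes 9 were higher and 8 lower with CUMS, beside 19.1% and 29.4% of all probes, with Hsf4 at 0.77 ± 0.20 and Dnajb2 at 0.67 ± 0.15 above and Hspa4, an HSP110 relative, at -0.50 ± 0.08 below. With OVX 4 were higher and 9 lower, beside 27.4% and 27.7% of all probes, with Dnajc7 at 0.64 ± 0.14 and Cryab, a lens and muscle small heat shock protein, at -0.99 ± 0.18. In mPFC 13 of 39 were higher and none lower with OVX, beside 19.1% of all probes called higher, led by Cryab at 0.33 ± 0.10 (adjusted p = 0.0121). The list leaves out the members themselves. With CUMS 3 were higher, beside 2.33% of all probes, among them the chaperone partners Dnajb4 at 0.24 ± 0.05 (adjusted p = 0.0251) and Chordc1 at 0.19 ± 0.05 (adjusted p = 0.0444). The interaction was called lower for Chordc1 at -0.45 ± 0.11 (adjusted p = 0.0338) and for Hsf2 at -0.25 ± 0.07 (adjusted p = 0.0404).
Among ER stress genes and chaperones in mPFC, 5 of 29 were higher with OVX, beside 19.1% of all probes, and 3 with CUMS, beside 2.33%, among them Creld2 at 0.24 ± 0.06 (adjusted p = 0.0409) and Manf at 0.20 ± 0.06 (adjusted p = 0.0484), both ER-resident factors made when ER proteins misfold. The interaction was lower for 4, beside 1.12% of all probes, a count without Hspa5 itself, with Creld2 at -0.50 ± 0.13 (adjusted p = 0.037) and Manf at -0.44 ± 0.12 (adjusted p = 0.0396). In blood 1 of 27 was higher and 9 lower with CUMS, beside 19.1% and 29.4% of all probes. With OVX 14 were higher and 1 lower, beside 27.4% and 27.7% of all probes, where Eif2ak3, the ER sensor kinase PERK, was at 0.64 ± 0.10 (adjusted p = 9.87e-05) and Ern1, the sensor IRE1, at -0.30 ± 0.12 (adjusted p = 0.0367).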

How the data were processed

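Total RNA of blood and mPFC was labelled with Cy3 and hybridised to one-colour Agilent SurePrint G3 mouse arrays of 62976 spots, 3671 of them controls and none of the others saturated. Per the file headers, the authors' scanner intensity values came from Feature Extraction 10.7.3.1, background-subtracted, with probe positions on mm9. A deposited table of log2 values was made by the authors by shifting each array to its 75th percentile. The log2 intensities computed here by that shift lay within 0.001 of it for 99.74% of blood and 99.79% of mPFC probes, with column medians of -2.956 to -2.66 and -3.89 to -3.547.

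Spots of a probe were averaged, and probes well above background on all arrays of a tissue and above an intensity of 50 on at least 2 were tested. A two-way limma fit (limma 3.58.1, R 4.3.3) per tissue gave the OVX effect, the CUMS effect and their interaction, with Benjamini-Hochberg adjustment over all detected probes and a threshold of 0.05. All tests were two-sided, and ± denotes SE where a difference is given. The tissue difference used all 48 arrays and took the 2 arrays of a mouse as correlated (0.059, by limma's duplicateCorrelation, estimated from every 10th probe in the alternatives). Code was tested on simulated data. Gene names were those of the array, and 26762 of 28390 RefSeq accessions matched the RefSeq gene table. The members and gene lists were chosen with earlier results of these data known. A gene was represented by its brightest detected probe. The named genes were all members, the 2 called genes of each list with the largest rise and fall per effect (1 gene of these is not reported here), and the 5 genes closest to Cirbp and Hsph1. Mice were grouped by their labels, which describe separate animals, and a shared replicate number links blood and mPFC of 1 mouse only. The number of arrays limits the precision. Alternatives were normexp background, quantile, detected-percentile and spike-in scaling (7 spike-in probes), the authors' values, other detection filters, each probe's own spread, slide and replicate blocks, within-slide fits, all probes, and each array left out.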

Additional observations from a re-analysis of the deposited data

Results flagged for a closer look

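In 10 of the 104 groups of 6 mice examined, 1 mouse lay far from the other 5, by a gap to its nearest neighbour above Dixon's critical share of the whole range at the 95% level. Chance alone gives such a gap in about 1 of 20 groups. Cirbp in blood was low in OVX mouse 3, at 2.542 against 2.973 for the next. Dnajb1 in blood was low in control mouse 4, at 3.191 against 3.425, and in CUMS mouse 2, the dimmest blood array, at 2.871 against 3.658. The brightest Hspa8 probe (A_55_P2080603) was low in the same CUMS mouse 2 in blood, at 6.622 against 7.269, and another (A_55_P2069721) in OVX mouse 1, at 4.761 against 4.909. In mPFC the Hspa8 probe A_52_P12877 was low in OVX mouse 5, at 5.059 against 5.201, and in OVX+CUMS mouse 6, at 4.593 against 4.968. Hspa5 in mPFC was low in OVX mouse 6, at 5.316 against 5.511, and in OVX+CUMS mouse 3, at 5.094 against 5.53. Hspa1a in mPFC was low in the same OVX+CUMS mouse 3, at -0.273 against 0.034.

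The effect of ovariectomy differed between blood and mPFC (blood minus mPFC, limma) for Cirbp by its main probe (0.368, adjusted p = 0.0385) and by its second probe (-0.896, adjusted p = 0.000246). It also differed for Hspa5 (0.4, adjusted p = 0.00875) and for Hsph1 by its main probe (-0.295, adjusted p = 0.0273). The second Hsph1 probe was not called (-0.271, adjusted p = 0.12). The value of the main Cirbp probe includes the low blood values of the CUMS mice. Its test is therefore not taken as independent of the choice of Cirbp. None of the 4 differences that passed was called with slide as a block.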

How the results depend on the processing

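Counts below are of called members. With slide as a block none was called (0) for OVX, the interaction or the tissue difference, nor for CUMS in mPFC, and within the first slide or within the last alone 0 were called for CUMS in blood and in mPFC. The blood interaction fell from 1 to 0 under quantile normalization, the spike-in shift, no detection filter, each probe's own spread and the replicate block. That in mPFC fell from 1 to 0 under these and the percentile over detected probes. For OVX in blood, 5 probes were called when all probes were counted and 4 members under quantile normalization and under the spike-in shift, Hspa8 being the added one, and in mPFC 4 members under the spike-in shift and 4 with own spreads. For CUMS in mPFC the count was 0 without a filter and 2 with probes detected on all 48 arrays, own spreads, the replicate block or all probes. The tissue difference gave 6 under the spike-in shift and 1 without a filter. Leaving out 1 array, the ranges were 3 to 4 for both main effects in blood, 0 to 3 for its interaction (3 without CUMS mouse 2), 2 to 3 for OVX, 0 to 4 for CUMS (4 without OVX+CUMS mouse 3) and 0 to 5 for the interaction in mPFC (5 without CUMS mouse 1), and 2 to 4 for the tissue difference. Of 3460 single values recomputed, 6 reversed, all under the spike-in shift. In mPFC, OVX gave -0.139 and -0.126 for the Hspa8 probes A_55_P2069721 and A_55_P2080603. The tissue difference gave 0.51 (Hspa8, A_52_P12877), 0.367 (Hsp90aa1), 0.399 (Rbm3, A_55_P2117525) and 0.232 (Hsph1). Another 144 uncalled values changed sign. The cause of these changes was not tested.

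The spike-in shift moved the median effect over all detected probes by 0.362 (OVX) and -0.294 (CUMS) in blood and by -0.165 and -0.128 in mPFC. The share of calls that were higher moved from 49.7% to 88.6%, from 39.4% to 5.26%, from 62% to 1.43% and from 55.6% to 0.905% in that order, and with the percentile over detected probes it was 48.5% for OVX and 43.2% for CUMS in mPFC. Over all probes, the blood interaction had 295 calls, and 1074 with normexp, 490 with quantile normalization, 12 with own spreads and 0 without a filter, with spike-ins or with the replicate block. In mPFC, CUMS had 1191 calls, 6848 with spike-ins and 25 without a filter, and the interaction 1266, 716 with own spreads, 615 with the replicate block, 1 without a filter and 0 with spike-ins.

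The replicate block does not rest on a pairing by design: deviations of mice with the same number in different groups correlated between -0.508 and 0.488 (median -0.093) over 36 pairs in blood and between -0.23 and 0.391 (median 0.039) in mPFC. With the block, Rbm3 lost its blood interaction (0.72, adjusted p = 0.0921) and Hspa5 its mPFC interaction (-0.41, adjusted p = 0.055), while Dnajb1 passed for CUMS in mPFC (0.18, adjusted p = 0.0476). Blood arrays, dimmer than those of mPFC, limit what can be said of Hspa1a and Hspb1 there.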

Other observations

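Clock genes and their outputs, some of which are known to follow body temperature, also moved in these arrays. In mPFC 5 of 16 were higher with CUMS, beside 2.33% of all probes, led by the period genes Per2 at 0.52 ± 0.08 (log2 ± SE, limma, adjusted p = 0.00545) and Per1 at 0.33 ± 0.07 (adjusted p = 0.024). With OVX 1 was lower and 2 were higher, the latter beside 19.1% of all probes: Cry1, a repressor of the clock, at -0.28 ± 0.07 (adjusted p = 0.00591), and Npas2 at 0.17 ± 0.06 (adjusted p = 0.039) and Tef at 0.12 ± 0.04 (adjusted p = 0.0191). Cry1 had a positive interaction of 0.51 ± 0.15 (adjusted p = 0.0463). In blood 6 of 16 were detected, and all 6 were past the threshold below with CUMS, beside 29.4% of all probes, among them Arntl at -0.50 ± 0.10 and Nr1d2 at -0.42 ± 0.11, while 5 were higher with OVX, beside 27.4% of all probes, among them Cry2 at 0.42 ± 0.10 (adjusted p = 0.00139). None of these lists was chosen without knowledge of earlier results, the stress schedule included shifted light cycles, and no call in mPFC held with slide as a block.

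Mitochondrial chaperones and the cytosolic chaperonin were also counted. In blood, where 29.4% of all probes were lower with CUMS and 27.4% higher with OVX, the counts were as follows. Of 9 mitochondrial chaperone and protease genes 6 were lower with CUMS (Lonp1 at -0.43 ± 0.09) and 4 higher with OVX (Clpx at 0.40 ± 0.11, adjusted p = 0.00442). Of the 8 subunits of the cytosolic chaperonin 6 were lower and 1 higher with CUMS (Cct4 at -0.35 ± 0.10, Cct7 at 0.23 ± 0.09) and 5 higher with OVX (Cct6a at 0.40 ± 0.11, adjusted p = 0.00482). In mPFC 2 of 8 chaperonin subunits were higher with OVX, beside 19.1% of all probes, and none was called with CUMS. These were Cct7 at 0.16 ± 0.04 (limma, adjusted p = 0.00308) and Cct2 at 0.16 ± 0.04 (adjusted p = 0.00571).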
